A study of Mus musculus with 4 samples.

Results

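Genes of cholesterol synthesis, of its sterol-sensing control and of cholesterol transport were followed in E17.5 mouse skin with and without overexpression of Ovol2. The set of 29 genes was chosen by symbol, and each gene was read from a probe set whose annotation names it alone, the brightest over the arrays where there was more than 1. A probe set was found for 27 of the 29, among 19938 genes with one, and Acat2 and Soat1 have none in the annotation used here. The set holds enzymes, regulators and transport proteins but no lipoprotein receptor, so of uptake it covers only the lysosomal export proteins Npc1 and Npc2.

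RNA was measured on 4 Affymetrix whole-transcript arrays, 2 per group, each with RNA of 2 mice. Control mice carried the tetracycline-responsive transgene TRE-Ovol2-Flag without a driver, or were wild type. Ovol2 BT mice carried TRE-Ovol2-Flag and K5-tTA, in which the keratin 5 promoter, active in basal keratinocytes, drives the tetracycline transactivator. The labels give all mice as female, call them littermates, and state the strain as CB6F1 for controls and FVB/N for Ovol2 BT, so genotype and labelled strain cannot be told apart. Whole skin was used, and fewer cells of a type and less RNA per cell cannot be told apart in such samples. The labels call the arrays biological replicates, and with 2 per group their number limits the precision of every value below. Ovol2 itself read 360 and 161 (deposited intensity) in the controls against 4367 and 3893 in Ovol2 BT, so the labelled overexpression was present in both of those arrays.

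Cholesterol is built from acetyl-CoA through mevalonate, isoprenoid diphosphates, squalene and lanosterol. When sterols are low in the membrane of the endoplasmic reticulum, Scap carries the transcription factor SREBP-2, the product of Srebf2, to the Golgi, where it is cut and released to switch on the genes of the pathway. Insig proteins hold Scap back when sterols are plentiful, and Insig1 is itself a target of that factor. In the epidermis, cholesterol is one of the main lipids of the water barrier that forms before birth, and its sulfate takes part in shedding of the outer layer.

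The DNA before the start of 3 of these genes is shown with its matches to a few short motifs. The sterol element among them was matched in Hmgcs1 only, and elements bound by the liver X receptors were not searched for. Hmgcs1 was chosen as the entry enzyme measured here, Insig1 and Abca1 as the genes with the largest differences between the groups. Each run is the 250 bases before the annotated start, 5′ to 3′ on the gene's strand, from RefSeq (GRCm38.p6). Capitals mark matches on either strand to the core of the sterol regulatory element (TCACNCCAC), the NF-Y box (CCAAT, read as ATTGG on the other strand), the E-box (CACGTG) or the Ovol core (CCGTTA). Overlaps between motifs were allowed.
Hmgcs1, chr13:119690101-119690350, plus strand: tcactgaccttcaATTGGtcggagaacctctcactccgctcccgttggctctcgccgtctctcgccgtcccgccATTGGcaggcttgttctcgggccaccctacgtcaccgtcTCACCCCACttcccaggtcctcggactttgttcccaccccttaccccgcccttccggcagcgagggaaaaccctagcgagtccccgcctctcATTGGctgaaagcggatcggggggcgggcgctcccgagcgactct
Insig1, chr5:28071162-28071411, plus strand: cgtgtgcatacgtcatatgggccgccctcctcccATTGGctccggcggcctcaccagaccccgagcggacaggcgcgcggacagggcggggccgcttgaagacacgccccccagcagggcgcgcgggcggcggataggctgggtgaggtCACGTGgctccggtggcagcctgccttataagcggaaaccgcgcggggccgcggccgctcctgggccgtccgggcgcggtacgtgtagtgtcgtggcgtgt
Abca1, chr4:53159896-53160145, minus strand: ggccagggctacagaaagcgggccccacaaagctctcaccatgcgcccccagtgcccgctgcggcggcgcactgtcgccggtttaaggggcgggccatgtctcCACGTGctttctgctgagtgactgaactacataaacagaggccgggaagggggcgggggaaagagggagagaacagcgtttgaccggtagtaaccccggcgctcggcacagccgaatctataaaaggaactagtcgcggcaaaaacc

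The Hmgcs1 run holds a match to the sterol regulatory element core whose first letter lies 137 bases before the start, between NF-Y boxes at 176 and 45 bases, with a further NF-Y box at 237 bases. The Insig1 run holds an NF-Y box at 216 bases and an E-box at 101 bases, and the Abca1 run an E-box at 147 bases. A promoter window (250 bases before to 50 after a start) was available for 21 of the 27 genes. The NF-Y box, bound by a factor known to act beside SREBP-2, occurred in the windows of 19 of these 21 genes, against 41.1% of all 27025 genes with a window and 41.7% of the 15614 that also have a probe set here. The E-box occurred in 6 of the 21, against 8.09% of all genes. The strict core of the sterol element occurred in Hmgcs1 alone of the 21, against 1.44% of all genes, and the Ovol core in 0 of the 21, against 3.15%. A match describes letters and is not a binding site, and the absence of these letters from a window says nothing about the factor.

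None of the 27 cholesterol genes passed limma's test between Ovol2 BT and control skin. The nearest were the sterol sensor gene Insig1, at 1.83-fold higher, and the cholesterol exporter gene Abca1, at 1.54-fold higher, in Ovol2 BT. The 18 enzymes of the pathway lay between -0.51 and 0.42 in log2 difference (Ovol2 BT minus control), 9 of them positive and 9 negative. Srebf2 and Scap, at the head of its control, lay at -0.08 and 0.01.

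Values were tested as log2(intensity + 16) with limma over the 14953 genes left after those in the lowest 25% by mean level were dropped, with Benjamini-Hochberg adjustment over all of them and a call at an adjusted p under 0.05. All 27 genes were kept, and 22 were brighter than the median gene tested. Of the genes tested, 0.963% were called, 0.615% higher and 0.348% lower in Ovol2 BT. At an unadjusted p under 0.05, 2 of the 27 genes (7.41%) stood out in limma, Insig1 and Abca1, against 10.4% of all genes tested. The median difference of the 27 genes was 0.01, beside -0.04 over the genes tested and -0.0020 over all genes with a probe set. Their median absolute difference was 0.17, beside 0.19 over the genes tested. The differences of the cholesterol genes were thus of about the size seen over all genes tested.

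The intervals show how large a change the arrays could have missed. The 95% interval of the difference, without correction for the number of genes, lay within 2-fold in either direction for 23 of the 27 genes, and within 1.5-fold for 7. The other 4 were Insig1 and Abca1 at their upper ends and Idi1 and Hsd17b7 at their lower ends. The interval reached 0.44 to 0.76 (log2) to either side of the difference. The absence of a call therefore does not show that a gene was at the same level in both groups.

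**Figure D1:**
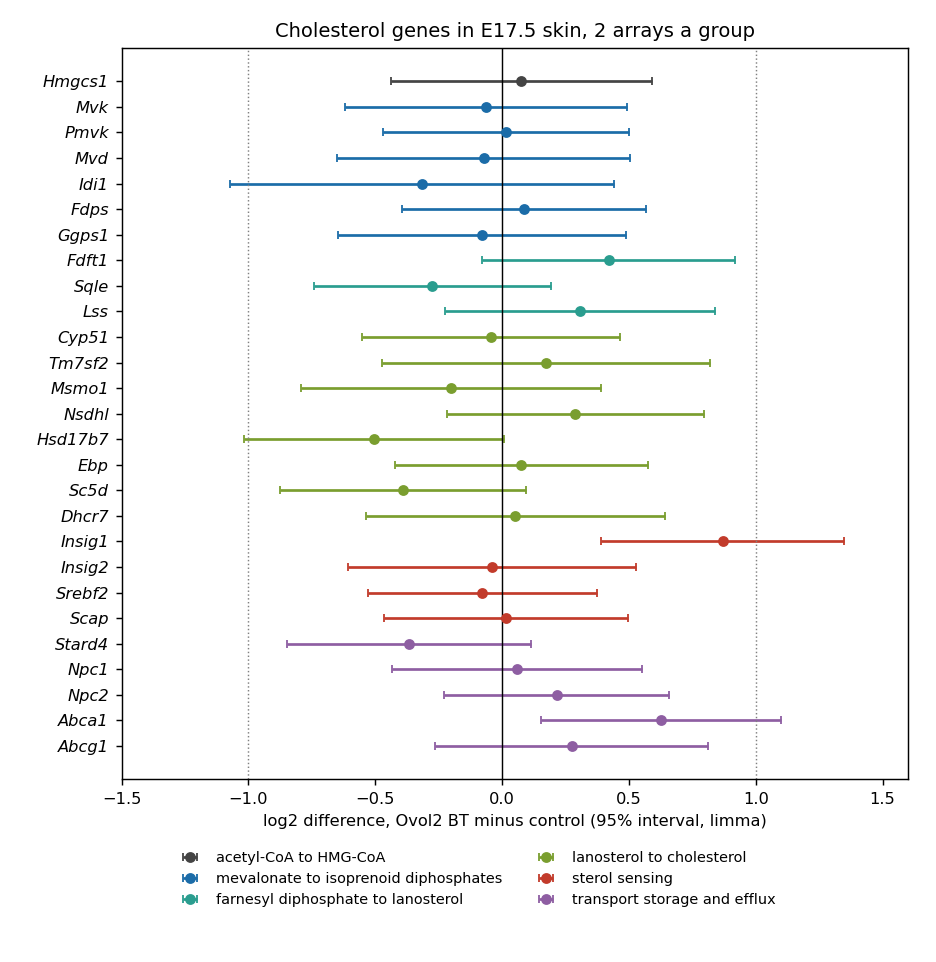
Log2 difference of each of the 27 cholesterol genes (Ovol2 BT minus control, 2 arrays per group), with limma's 95% interval as bars and colour for the step of the pathway; dotted lines mark a 2-fold difference. The intervals of Insig1 and Abca1 lie above 0, and those of the other 25 genes include 0.

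At the start of the pathway, Hmgcs1, which joins acetyl units into HMG-CoA, had deposited intensities of 781 and 1070.2 in control replicates 1 and 2, in that order here and below, against 904 and 1029.6 in Ovol2 BT. Both Ovol2 BT arrays lay between the controls, and the log2 difference was 0.08 (SE 0.23, adjusted p = 0.918).

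The next enzymes turn mevalonate into the isoprenoid diphosphates, from which sterols, ubiquinone and the lipid anchors of small G proteins are made. Their differences ran from -0.32 to 0.08, and the groups overlapped in all 6. Mvk, the mevalonate kinase, had intensities of 932 and 664 in the controls against 857 and 661 in Ovol2 BT (-0.06, SE 0.25). Mvd, which makes isopentenyl diphosphate, had 394 and 300.4 in the controls against 399 and 267 in Ovol2 BT (-0.07, SE 0.26). In both genes replicate 1 was above replicate 2 in each group, by more than the groups differed. Fdps, which makes farnesyl diphosphate, had 1588 and 1397 in the controls against 1815 and 1377 in Ovol2 BT (0.08, SE 0.21). Pmvk, the phosphomevalonate kinase (0.01), and Ggps1, which makes geranylgeranyl diphosphate (-0.08), lay as close to 0.

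Idi1, the isomerase of isopentenyl diphosphate, had the widest interval of the set. Its intensity was 177 in control replicate 1 and 401 in control replicate 2, against 188 and 238 in Ovol2 BT, so both Ovol2 BT arrays lay between the controls. The difference was -0.32 (SE 0.33, adjusted p = 0.755), -0.87 without control replicate 1 and 0.24 without control replicate 2, and its direction thus rested on which control was used. A further Idi1 probe set read 159 and 330 in the controls against 166 and 212 in Ovol2 BT, with the same split of the controls.

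Between farnesyl diphosphate and lanosterol, the first sterol of the pathway, the 3 enzymes had differences of both signs. Fdft1, which makes squalene, had 1720.2 and 1215 in the controls against 2029 and 1854 in Ovol2 BT, so both Ovol2 BT arrays were above both controls. Its difference was 0.42 (SE 0.22, adjusted p = 0.559), 0.67 without control replicate 1 and 0.17 without control replicate 2. Its further probe set gave 0.32. Sqle, the squalene epoxidase and a slow step of the pathway, had 1089 and 933 in the controls against 793 and 868 in Ovol2 BT, where both arrays lay below both controls (-0.28, SE 0.21, adjusted p = 0.657), and the difference was -0.17 without control replicate 1. Lss, which closes the sterol rings, overlapped between the groups (0.31, SE 0.24, adjusted p = 0.664), with 0.13 without control replicate 2 or without Ovol2 BT replicate 1.

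From lanosterol to cholesterol, 8 enzymes were measured, and the groups did not overlap in Hsd17b7 and Sc5d. Hsd17b7, a sterol ketone reductase, had intensities of 462 and 371 in the controls against 255 and 322 in Ovol2 BT, the lowest difference of the set at -0.51 (SE 0.23, adjusted p = 0.492). Sc5d, a sterol desaturase, had 726 and 717 in the controls against 492 and 606 in Ovol2 BT (-0.39, SE 0.21, adjusted p = 0.573). Both genes were below the controls in each Ovol2 BT array, and their differences stayed negative with any 1 array left out, at -0.66 to -0.35 for Hsd17b7 and -0.54 to -0.25 for Sc5d.

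The other enzymes of this stretch overlapped between the groups. Dhcr7, which catalyses the last reduction to cholesterol, had 1403 and 944 in the controls against 1413 and 1009 in Ovol2 BT (0.05, SE 0.26). Nsdhl, which helps to remove methyl groups, had 1350 and 1016 in the controls against 1294 and 1591 in Ovol2 BT (0.29, SE 0.22), a difference of 0.087 without control replicate 2 and 0.49 without control replicate 1. Cyp51, the lanosterol demethylase, had 354 and 345 in the controls against 291 and 394 in Ovol2 BT (-0.04, SE 0.22). The values of Msmo1, a sterol methyl oxidase (-0.20), the reductase gene Tm7sf2 (0.17) and the isomerase gene Ebp (0.08) were also within the spread of the arrays.

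Among the 4 sterol-sensing genes, Insig1 stood at 0.87 and the other 3 between -0.08 and 0.01. Insig1 had 586 and 613 in the controls against 1001 and 1226 in Ovol2 BT, so the lower Ovol2 BT array was well above the higher control. Its difference (SE 0.21, 95% interval 0.39 to 1.35, adjusted p = 0.143 in limma) was the largest of the 27. With any 1 array left out it lay between 0.73 and 1.01. Its adjusted p ran from 0.00876 to 0.326 over the alternatives tried, and it was under 0.05 only with the replicate number as a block.

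Insig2, which encodes the other Insig protein and is less dependent on SREBP-2, had 721 and 644 in the controls against 534 and 822 in Ovol2 BT (-0.04, SE 0.25). Its Ovol2 BT arrays lay on either side of both controls. Srebf2 had 1759 and 1732 in the controls against 1861 and 1468 in Ovol2 BT (-0.08, SE 0.20, interval -0.53 to 0.38). Scap had 1181 and 1062 in the controls against 1272 and 1005 in Ovol2 BT (0.01, SE 0.21). The difference between Insig1 and Insig2 in their response was not tested.

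Among the transport genes, Abca1, which moves cholesterol out of the cell to apolipoproteins and is a target of the liver X receptors (LXR), had intensities of 747 and 745 in the controls against 1281 and 1051 in Ovol2 BT. The controls were nearly equal and both Ovol2 BT arrays were above them. The difference was 0.63 (SE 0.21, interval 0.15 to 1.098, adjusted p = 0.334 in limma), and 0.49 to 0.77 with any 1 array left out. Its adjusted p ran from 0.0457, with the replicate number as a block, to 0.960.

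Abcg1, an exporter to lipoprotein particles and also an LXR target, had 239 and 205 in the controls against 330 and 222 in Ovol2 BT (0.27, SE 0.24, adjusted p = 0.700). Its arrays overlapped, and without Ovol2 BT replicate 1 the difference was 0.0048. Stard4, a carrier of cholesterol between membranes and a target of SREBP-2, had 358 and 308 in the controls against 232 and 277 in Ovol2 BT, both below the controls (-0.37, SE 0.21, adjusted p = 0.587, and -0.49 to -0.25 with any 1 array left out). Npc2, which hands cholesterol to Npc1 in the lysosome, had 1398 and 1292 in the controls against 1686 and 1449 in Ovol2 BT, both above the controls (0.22, SE 0.20, adjusted p = 0.715, and 0.11 without Ovol2 BT replicate 1). Npc1 itself overlapped between the groups (0.06, SE 0.22).

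Over the set, both Ovol2 BT values were above both controls in 4 of the 27 genes (14.8%: Insig1, Abca1, Fdft1 and Npc2) and below them in 4 (14.8%: Hsd17b7, Sc5d, Stard4 and Sqle). Over all genes tested the shares were 20.4% above and 21.9% below. A split of the arrays without overlap was therefore no more frequent among the cholesterol genes than over all genes.

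**Figure D2:**
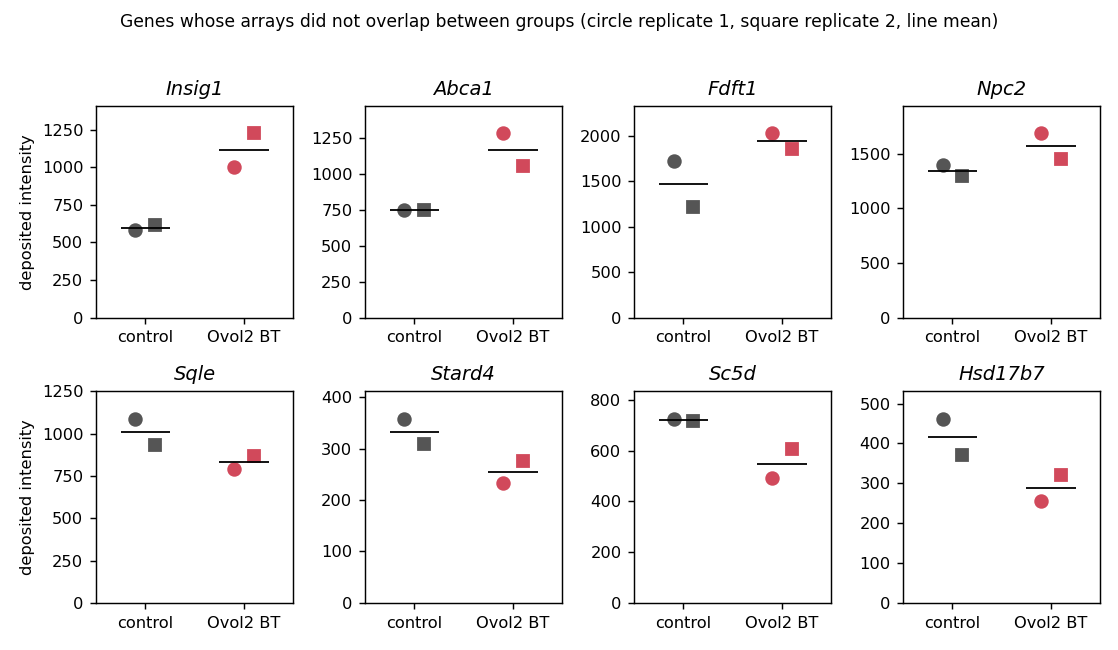
Deposited intensity (linear, axes from 0) on each array for the 8 cholesterol genes whose groups did not overlap; circles are replicate 1, squares replicate 2, lines the mean of 2 arrays. Insig1 reads 586 and 613 in the controls against 1001 and 1226 in Ovol2 BT, the widest separation of the 8.

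The spread between arrays of the same group was as large as the difference between groups for most of the set. In 21 of the 27 genes the group difference was smaller than the larger of the 2 gaps between arrays of a group, and in 6 it was larger than both. In the controls 22 genes were higher in replicate 1 than in replicate 2, and in Ovol2 BT 14 were. The gap had the same sign in both groups in 19 of the 27 genes (70.4%), beside 67.2% of all genes tested. Across the 27 genes the control gap and the Ovol2 BT gap correlated at r = 0.48, and across all 14953 genes tested at 0.41. Genes of the same array share its RNA and its hybridization and are not independent replicates. No label ties same-numbered arrays to a common litter, day or batch, and what they share was not tested.

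By these gaps, 19 genes went with the replicate number and 8 did not. Mvk, Mvd, Fdps, Pmvk, Lss, Ebp, Tm7sf2, Dhcr7, Fdft1, Srebf2, Scap, Npc2, Abca1 and Abcg1, 14 in all, were higher in replicate 1 of both groups. Tm7sf2 was the widest of them in the controls, with 436 against 252, and 435 against 327 in Ovol2 BT. Hmgcs1, Idi1, Ggps1, Msmo1 and Insig1, 5 in all, were higher in replicate 2 of both groups. Enzymes of neighbouring steps thus fell on opposite sides, as with Mvd and Idi1.

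**Figure D3:**
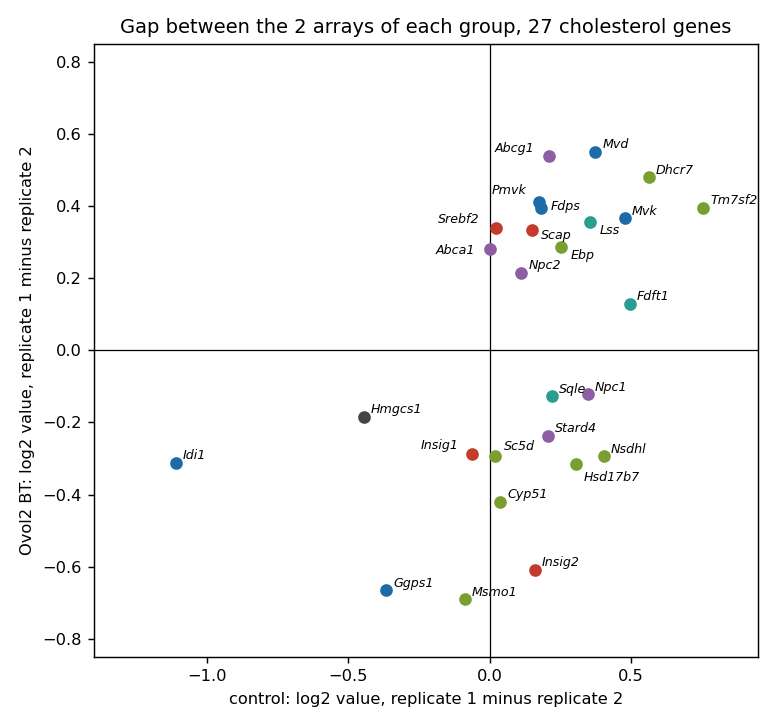
Gap between replicate 1 and replicate 2, as a difference of log2(intensity + 16), in the controls (horizontal) and in Ovol2 BT (vertical) for the 27 cholesterol genes, coloured as in the plot of differences by gene. In 14 genes both gaps are above 0 and in 5 both are below, with Idi1 farthest to the left.

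Other genes of sterol, isoprenoid and fatty acid metabolism were read from 6 lists with 67 genes tested in all, of which 5 were called higher and 1 lower. The shares over all genes tested were 0.615% higher and 0.348% lower, but the lists were chosen with earlier results of these data known. The called gene of the SREBP processing list was Paqr3, a Golgi membrane protein reported to hold Scap there. It had intensities of 334 and 392 in the controls against 114 and 73.9 in Ovol2 BT, and fell by 1.81 (log2 difference, SE 0.23) or 3.50-fold, with an adjusted p of 0.00861. Both Ovol2 BT arrays lay far below the controls. Of the 9 genes of that list with a value, the others were not called. Srebf1, which encodes the SREBP that favours fatty acid genes, had 621 and 492 in the controls against 1460.2 and 993 in Ovol2 BT (1.101, SE 0.25, adjusted p = 0.112). It was under the threshold without control replicate 1 (1.27, adjusted p = 0.0168), without Ovol2 BT replicate 2 (1.38, adjusted p = 0.0201) and with the replicate block (adjusted p = 0.00193).

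The 5 called increases all belonged to the fatty acid synthesis list, where 5 of 17 genes were called higher and 0 lower. Over all genes tested 0.615% were called higher, but the list was chosen with earlier results of these data known. The median difference of the list was 0.34. In the adipocyte marker list 12 of 21 genes were called higher, and the part of fat tissue in these increases was not tested. Fasn, the fatty acid synthase, had 2118 and 1809 in the controls against 3902 and 4132 in Ovol2 BT and rose by 1.03 (SE 0.18, adjusted p = 0.0328). Scd1, a desaturase, had 982 and 873 in the controls against 3385 and 5767 in Ovol2 BT and rose by 2.23 (SE 0.26, adjusted p = 0.00605). The others were Acacb, an acetyl-CoA carboxylase (2.37, adjusted p = 0.00471), the phosphatidate phosphatase gene Lpin1 (2.02, adjusted p = 0.00732) and Thrsp, a regulator of lipid synthesis (3.46, adjusted p = 0.00668). Fasn was not called without a variance trend (adjusted p = 0.0609) or without Ovol2 BT replicate 2 (0.0563).

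In the other 4 lists no gene was called by limma, and 10 of their 42 genes (23.8%) had an unadjusted p under 0.05, beside 10.4% of all genes tested. The list of lipoprotein uptake and LXR genes had 0 of 9 called and a median of 0.20. Nr1h3, which encodes LXR alpha, had 228 and 129.9 in the controls against 667 and 434 in Ovol2 BT (1.55, SE 0.30, adjusted p = 0.0589). Over the alternatives its call changed, with an adjusted p under 0.05 where the lower 50% of genes was left out (adjusted p = 0.0168), under median centring (0.0387), with the replicate block (0.000172) and without control replicate 1, control replicate 2 or Ovol2 BT replicate 2 (1.18 to 1.93). Lpcat3, a phospholipid acyltransferase and LXR target, lay at 0.74 (SE 0.20, adjusted p = 0.208, and 0.0185 with the replicate block).

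The list of intracellular sterol transport had 0 of 14 called and a median of -0.0016. Gramd1b (0.79, SE 0.20, adjusted p = 0.168) and Gramd1c (-0.86, SE 0.29, adjusted p = 0.334), which encode related carriers of cholesterol from the cell membrane to the endoplasmic reticulum, had differences of opposite sign. Both were under the threshold with the replicate block (adjusted p = 0.0178 for Gramd1b and 0.0138 for Gramd1c). Gramd1c was also under it without control replicate 1 (-1.26, adjusted p = 0.00446), and its difference was -0.46 without control replicate 2. In the list of oxysterol and cholesterol sulfate enzymes, 0 of 7 were called and the median was 0.01, with Hsd3b7 at 0.77 (adjusted p = 0.270) and Cyp27a1 at 0.65 (adjusted p = 0.278). With the replicate block their adjusted p was 0.0267 and 0.0403. Enzymes that use isoprenoids had 0 of 12 called and a median of 0.02. The 2 with the smallest p, the prenyltransferase subunit genes Pggt1b (-0.54, adjusted p = 0.536) and Rabggtb (-0.52, adjusted p = 0.544), were not called. The difference between the cholesterol genes and any of these lists was not tested.

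**Figure D4:**
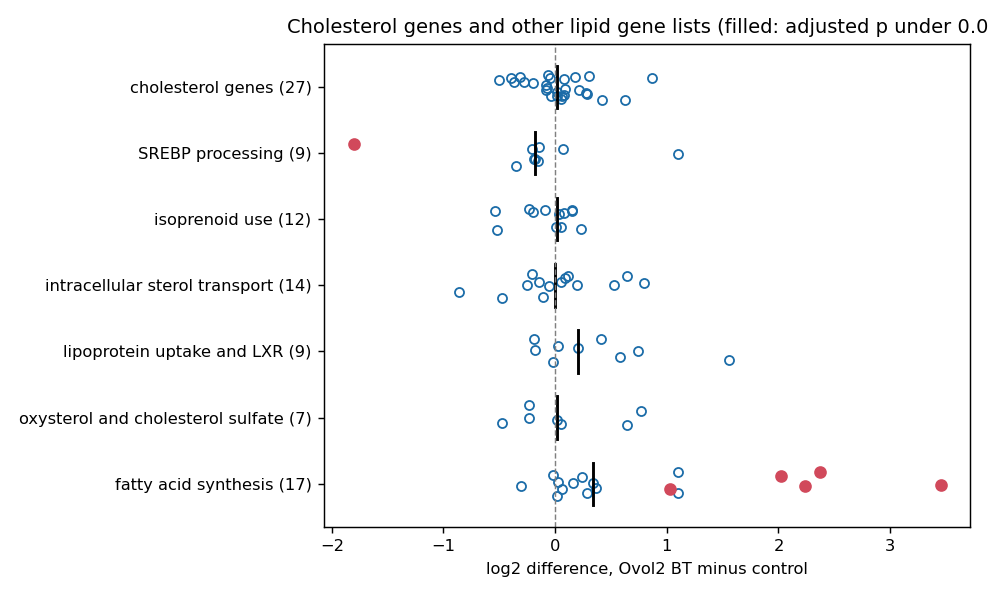
Log2 difference (Ovol2 BT minus control) of each gene in the cholesterol set and in 6 other lists, with the number of genes in brackets; filled points are genes called by limma, black bars the median of each list and the dashed line the median of all genes. The 27 cholesterol genes hold no filled point and the fatty acid synthesis list holds 5.

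Of the cell types that skin can hold, adipocyte markers differed most between the groups and some keratinocyte markers were called lower. All 21 genes of the adipocyte list had higher means in Ovol2 BT, and the list's mean log2 level was 9.16 and 8.57 in the controls against 10.74 and 10.68 in Ovol2 BT. Basal keratinocyte genes stood at 10.57 and 10.49 in the controls and at 10.02 and 9.82 in Ovol2 BT (12 of 13 lower, 3 of them called). Suprabasal genes stood at 12.15 and 11.79 against 11.48 and 11.52 (10 of 11 lower, 1 of them called). Over all genes tested 0.348% were called lower. The brightest basal genes were Krt5 (-1.10, adjusted p = 0.0148 in limma), Krt14 (-1.24, adjusted p = 0.0226) and Sfn (-0.44, adjusted p = 0.492). The brightest suprabasal genes, Krt1 (-0.17), Krt10 (-0.13) and Lor (-0.19), overlapped between the groups. The 5 lists that follow had no called gene. Dermal fibroblast genes (11.85 and 11.93 against 11.85 and 11.93) differed by less than the gap between arrays. Macrophage genes (8.75 and 8.75 against 8.88 and 8.98), endothelial genes (9.73 and 9.64 against 9.87 and 10.05) and skeletal muscle genes (10.67 and 10.75 against 10.85 and 11.03) had somewhat higher list means in Ovol2 BT. Sebaceous gland genes were at 7.96 and 7.65 against 7.73 and 7.97, but only 6 of the 10 were bright enough to be tested. Of the 6, 2 were higher and 3 lower in Ovol2 BT at an unadjusted p under 0.05 in limma, beside 10.4% of all genes tested. Differences over this list ran from -1.35 to 1.55, so its mean does not show an unchanged list. Insig1, Abca1 and the adipocyte level were each higher in both Ovol2 BT arrays than in both controls, as were 20.4% of all genes tested. Between control replicates 1 and 2 the adipocyte level was 9.16 and 8.57, with Abca1 at 747 and 745 and Insig1 at 586 and 613. Between the Ovol2 BT arrays it was 10.74 and 10.68, with Abca1 at 1281 and 1051 and Insig1 at 1001 and 1226. The part of fat tissue in these values was not tested.

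Genes of liver and yolk sac differed between the controls, but not in 1 direction. Their mean log2 level was 8.96 in control replicate 1 and 8.10 in control replicate 2, and 7.32 and 6.80 in Ovol2 BT, with all 7 genes lower in Ovol2 BT and Alb, which encodes albumin, the only one called. Of the 7, 4 were higher in control replicate 1 and 3 in control replicate 2. Apoa1 read 2715 and 484 and Afp 2146 and 482 in the controls, whereas Alb read 305 and 865. Liver is a major site of cholesterol synthesis, and the part of such RNA in the values of the cholesterol genes was not tested. Without control replicate 1 the median difference of the 27 genes was 0.11, and without control replicate 2 it was -0.06. Each control had a higher liver and yolk sac level than both Ovol2 BT arrays. Leaving 1 control out therefore cannot show the part of such RNA.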

How the data were processed

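The authors deposited a linear intensity for each probe set; per the submitters' processing notes the software was PLIER 2.0 within Affymetrix Expression Console 1.1.1. Its settings, how arrays were normalized and the genome build: not given in the sources used here. Median intensities were 123 to 132 over the 4 arrays, and no further scaling was applied. Of 35557 probe sets, 21789 name 1 gene; Fdft1 and Idi1 have 2 each. All 27 genes matched the RefSeq table by Entrez ID with the same symbol. Values were tested as log2(intensity + 16), which understates differences of dim genes, with limma 3.58.1 in R 4.3.3 (group term, eBayes with a variance trend, two-sided). The fit left out the lowest 25% of genes by mean level and had 2 residual and 6.94 prior degrees of freedom. It was tested on simulated data with 200 changed genes in each of 20 runs. There it called 2.4% of the genes changed 1.5-fold, 32.6% of those changed 2-fold and 98.2% of those changed 4-fold. Of its calls 5.28% were false. Most changes of 2-fold or less would thus go without a call under those settings. The simulated noise was independent between genes and arrays, with variances drawn from the fit's own prior. Same-numbered arrays of the real data deviated together (r = 0.41 across genes), so the simulated rates may not hold for calls in these data. Summaries used pandas 2.3.3 in Python 3.11.15, and plots matplotlib 3.10.9.

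The genes and lists were chosen with earlier results of these data known. Named are all cholesterol genes, the called genes and the 2 smallest p of each lipid list, and Ovol2. Of the cell type lists, only the brightest genes of the basal list, the suprabasal list and the liver and yolk sac list are named. Other list members are counted. Promoter sequences are those of RefSeq (GRCm38.p6), which is used for nothing else but names. Fdps, Fdft1, Sqle, Stard4, Npc1 and Abcg1 have no window in that table. Alternatives changed the pseudocount (1 or 64), the filter (none or 50%), the scaling (quantile or median centring), the variance trend, the handling of several probe sets, the threshold (0.10) and the arrays used, and added the replicate number as a block.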

Additional observations from a re-analysis of the deposited data

How the results depend on the processing

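Of the 27 cholesterol genes, 0 were called under every alternative other than the replicate block, at an adjusted p under 0.10 included. The numbers do not pair the arrays by any label, and same-numbered arrays deviated together (r = 0.41 across genes). With the replicate block, 2 of the 27 were called (Insig1 and Abca1), beside 671 of all 14953 genes tested (323 higher, 348 lower). Of the 67 genes tested in the 6 lipid lists, 15 were then called (13 higher, 2 lower). Lower calls over all genes numbered 89 at an adjusted p under 0.10. With the lower 50% left out the lipid lists had 0 lower calls, since Paqr3 was then not tested.

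Leaving out 1 array makes the other array of its group stand alone, assumed to vary like the rest; 206 to 366 genes were then called (100 to 220 higher, 71 to 146 lower), the highest count without control replicate 1. The prior degrees of freedom were infinite without either control array. The lipid lists had 7 to 10 calls (6 to 8 higher, 1 to 2 lower), and the median of the 27 genes lay between -0.062 and 0.14. The sign of the difference was kept under all alternatives in 11 of the 27 genes and turned under some in 16. Under quantile normalization Mvk (0.025), Mvd (0.0057), Cyp51 (0.040) and Insig2 (0.053) turned positive. With 1 array left out the ranges that crossed 0 were those of Hmgcs1 (-0.15 to 0.30), Mvk (-0.30 to 0.18), Pmvk (-0.19 to 0.22), Mvd (-0.35 to 0.20), Idi1 (-0.87 to 0.24), Fdps (-0.11 to 0.28), Ggps1 (-0.41 to 0.25), Cyp51 (-0.25 to 0.17), Tm7sf2 (-0.20 to 0.55), Msmo1 (-0.55 to 0.14), Ebp (-0.069 to 0.22), Dhcr7 (-0.23 to 0.33), Insig2 (-0.34 to 0.27), Srebf2 (-0.25 to 0.092), Scap (-0.15 to 0.18) and Npc1 (-0.11 to 0.23). The cause of these changes was not tested. No background signal is given, so how far a probe set lies above it is unknown here.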
